A study of Mus musculus with 6 samples.

Results

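Genes of the SMYD, SET and PRDM families of lysine methyltransferases, with DOT1L, form a group of 35 listed genes. The question asked here was whether the others shift when Smyd2 is deleted from vascular smooth muscle cells (VSMCs). Membership goes by family, and not every member is an established lysine methyltransferase, as given below for Kmt2e, Setd3 and Setd5. Members were taken as the rows of the deposited expression table whose gene symbol equals a listed name. This gave 34 of the 18112 genes in the table. Prdm16 has no row there, so its expression was not analysed and only its promoter was read. The data are RNA-seq of primary aortic VSMCs, 3 libraries from Smyd2 fl/fl mice and 3 from Smyd2 SMC-/- mice. Both groups are on the C57BL/6 strain, and both carry loxP sites around exon 2 of both Smyd2 alleles. Smyd2 SMC-/- mice also carry a Cre transgene under the Tagln (SM22α) promoter, which is active in some other cell types as well, and Smyd2 fl/fl littermates without it were the controls. The mice were young adults. The labels give cells at passage 6 in medium with 10% serum, whereas the study's methods give an earlier passage and overnight starvation. Nothing in the labels says which libraries came from separate animals, so the p-values measure the spread between these libraries.

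Lysine methyltransferases transfer methyl groups to lysines of histones and of other proteins, and the lysine that is modified sets what the mark is known for. Methylation of histone H3 at lysine 4 (H3K4) marks promoters and enhancers, H3K36 and H3K79 methylation mark transcribed genes, and H3K9 and H3K27 methylation mark silenced chromatin. SMYD2 is known for methylating H3K4 and H3K36 as well as proteins such as p53, RB1 and HSP90, and in smooth muscle H3K4 methylation is found at promoters of contractile genes.

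Expression was given as FPKM, a fragment number scaled to transcript length and library size. Where 3 values are listed for a genotype, they are those of replicates 1, 2 and 3 in that order. The libraries held about 18600000, 20000000 and 20000000 fragments for Smyd2 fl/fl, compared with 17350000, 19250000 and 19350000 for Smyd2 SMC-/-, estimated from low values. The estimate depends on a length offset chosen after 3 versions were tried, and without the offset it was between 15900000 and 18250000. The replicate 1 libraries of both genotypes stood apart from replicates 2 and 3, so the counts, and the values of some genes, are also given without them. Among markers of smooth muscle, Acta2 was abundant in all libraries, whereas Myh11, Myocd and Des had at most 0.48 FPKM in any. Of the endothelial markers, Cdh5 and Tie1 had at most 0.01 FPKM and Pecam1 at most 0.92, while Kdr had 0.47, 0.58 and 0.84 FPKM across the Smyd2 fl/fl libraries against 0.96, 5.15 and 2.96 across the Smyd2 SMC-/- ones. Of the leukocyte markers, Ptprc and Adgre1 had at most 0.02 FPKM, while Cd14 had 10.6 to 37.7 and Cd68 2.93 to 4.87. The directions were mixed within both lists: Kdr and Csf1r were higher in Smyd2 SMC-/- and Pecam1 lower, each with groups that did not overlap, while Cd14 and Lyz2 had negative fold changes with groups that overlapped. Pecam1 was under the filter and not tested. None of the others was called without or with the replicate block, but Kdr and Csf1r were called with a term for replicate 1 and in replicates 2 and 3 alone, and Lyz2 in the latter.

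The targeted gene was read first. Smyd2 (NCBI Gene number 226830, chr1:189880492-189922363, minus strand) had 7.87, 3.10 and 3.0 FPKM with Smyd2 fl/fl and 1.67, 0.40 and 0.80 with Smyd2 SMC-/-. The groups did not overlap, all 3 Smyd2 SMC-/- libraries being lower, and replicate 1 was the highest of its group in both genotypes. Within the same-numbered pairs, Smyd2 SMC-/- held 21.2%, 12.9% and 26.7% of the Smyd2 fl/fl level, and its smallest value rests on about 12.3 fragments. On log2(FPKM + 1) the difference was −1.48 with a standard error of 0.39 (limma, adjusted p = 0.105). Blocking on the replicate number brought the adjusted p to 0.0189, and it ranged from 0.00126 to 0.305 over all settings tried. The two-sided exact permutation test on FPKM gave p = 0.1, the smallest that 3 against 3 libraries allow.

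The loxP sites flank exon 2, taken here as exon 2 of the annotated transcript, since the sources used here give no coordinates of the sites. Exon 2 of its 12 exons lies at chr1:189909851-189909914 of GRCm38 on the minus strand and consists of coding sequence. It is printed below as spliced, with exon 2 in capitals between the last 30 bases of exon 1 and the first 30 bases of exon 3, because it is the exon between the loxP sites. Cre removes intron sequence between the sites as well, which is not shown.
Smyd2 exons 1 to 3: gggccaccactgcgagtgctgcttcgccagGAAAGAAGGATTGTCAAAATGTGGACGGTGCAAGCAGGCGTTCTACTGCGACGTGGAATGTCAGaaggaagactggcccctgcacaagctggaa
Exon 2 has 64 bases, which leaves a remainder of 1 on division by 3, so joining exon 1 to exon 3 shifts the reading frame. In the annotated transcript the joined frame reaches a stop after 109 codons, compared with 433 in the full coding sequence. The exon is 3.81% of the 1680 bases of that transcript. A gene-level FPKM also counts fragments from the exons outside the deleted part, and reads of exon 2 alone were not analysed here. Exons of Gm37422 overlap Smyd2 on the opposite strand, and whether strand was used in counting is not given in the sources used here.

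All 34 members passed the filter of a mean of at least 0.5 FPKM, and none was at 0 in any library. Mean levels ran from 0.765 FPKM for Setd4 to 61.8 FPKM for Ehmt2, and 20 members had at least 10 FPKM. Ehmt2, Kmt2e, Setd5, Setd3 and Setd7 were the most abundant, in that order, and Setd4, Suv39h2, Smyd1 and Setmar were the scarcest, each under 2 FPKM. The median of the members' means was 11.8 FPKM, close to the 11 FPKM of all genes tested. The summed member FPKM was 565, 389 and 453 for Smyd2 fl/fl, compared with 503, 384 and 415 for Smyd2 SMC-/-, and the groups overlapped.

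**Figure D1:**
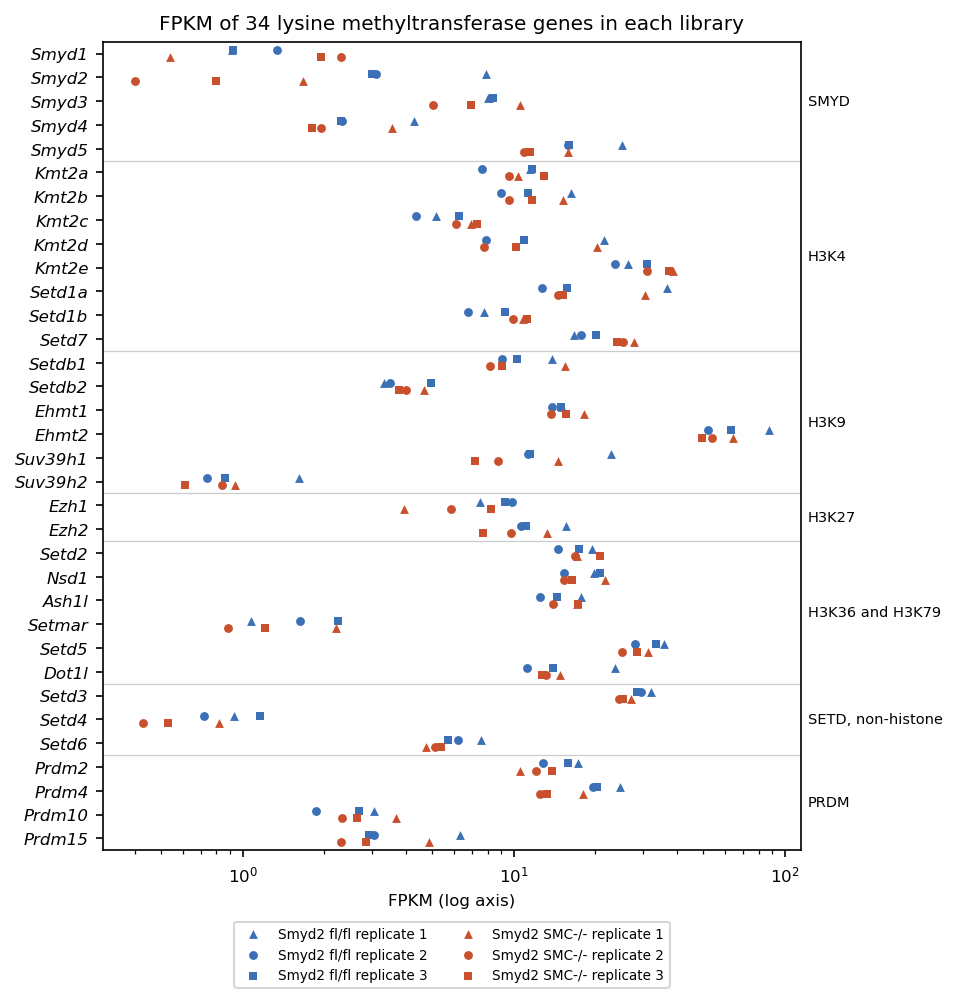
FPKM on a log axis of the 34 members (rows, by role) in each of the 6 libraries, with blue for Smyd2 fl/fl, orange for Smyd2 SMC-/- and the symbol shape for the replicate. Smyd2 is separated by genotype, while genes such as Setd1a and Kmt2d separate replicate 1 (triangles) from the other libraries.

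The main comparison called no member. At an adjusted p under 0.05 in limma without a block, Smyd2 SMC-/- had 0 of 34 members lower and 0 higher, where the shares of the 12565 genes tested were 1.21% and 1.23%. Taking instead an unadjusted p under 0.05, 2 members were lower (Smyd2 and Prdm4) and 3 were higher (Setd7, Kmt2e and Setd1b), against 11.2% and 9.16% of all genes tested. With the replicate number as a block, Smyd2, Smyd5 and Prdm4 were lower and 0 members were higher, against 5.72% and 4.72% of all genes tested. The block assumes that libraries of the same number pair, which the values do not decide for replicates 2 and 3. In replicates 2 and 3 alone, 4 members were lower (the same 3 genes and Suv39h1) and 2 were higher (Smyd1 and Setd7), against 17.2% and 11.9% of all genes tested. A term for replicate 1 in place of the block gave 4 lower and 1 higher, against 11.1% and 9.17%. Leaving out 1 library gave 0 members in either direction each time, while over all genes it gave from 16 lower (without Smyd2 fl/fl replicate 2) to 313 (without Smyd2 SMC-/- replicate 1), and from 16 higher (without Smyd2 fl/fl replicate 3) to 373 (without Smyd2 SMC-/- replicate 1). In each of the other fits the share of members called in either direction was at or below 11.8%, above the share over all genes for lower members with the block and with the term for replicate 1, and below it otherwise. Smyd2 itself is in these counts: of the 33 other members, 2 were lower with the block and 3 with the term, so that with the term the share was below that of all genes and with the block close to it.

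The groups did not overlap for 5 members that were lower (Smyd2, Smyd5, Setd3, Setd6 and Prdm4) and 2 that were higher (Setd1b and Setd7), where 15.0% and 13.1% of all genes tested did not overlap in those directions. The members' log2 fold changes ran from −1.48 to 0.48, and without Smyd2 from −0.54 to 0.48. Their median was −0.15, beside −0.02 over all genes tested, and 22 members were below 0. This median depended on single libraries: it was 0.00 without Smyd2 fl/fl replicate 1 and 0.03 without Smyd2 SMC-/- replicate 2, with 17 and 16 members below 0. It was −0.26 without Smyd2 fl/fl replicate 2 and again −0.26 without Smyd2 SMC-/- replicate 1, with 26 and 24 below 0, −0.08 without Smyd2 SMC-/- replicate 3, and −0.14 in replicates 2 and 3 alone. The 95% interval lay between −1 and 1 on log2(FPKM + 1) for 27 of 34 members, or 79.4%, compared with 70.0% of all genes tested, and for scarce members such as Setd4, Suv39h2 and Setmar this allows more than a 2-fold change in FPKM. Rescaling to TPM moved the median over all genes from −0.02 to 0.10, and relative to that median 22 members were again lower. The directions of Kmt2d, Setd1a, Setdb1 and Nsd1 turned. Of the genes called, 99 were then lower and 247 higher (28.6% lower), compared with 152 and 154 (49.7% lower) in the main fit.

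**Figure D2:**
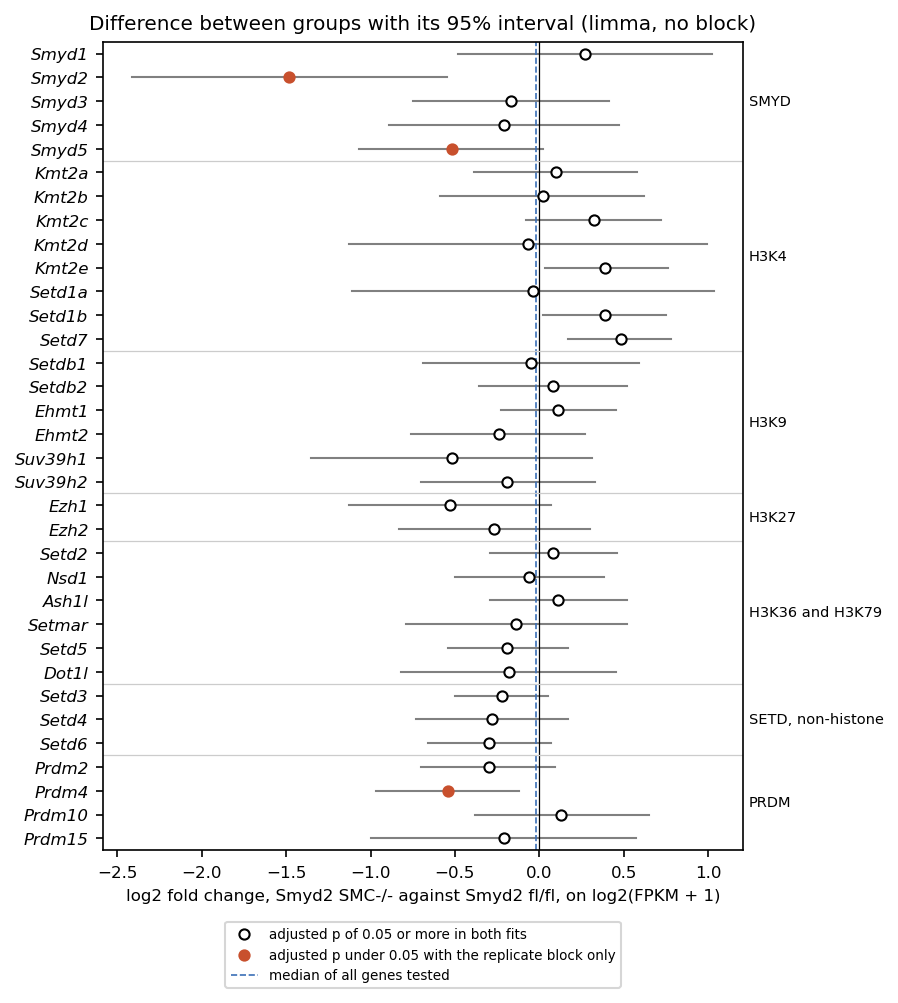
Log2 fold change of each member, Smyd2 SMC-/- against Smyd2 fl/fl on log2(FPKM + 1), with its 95% interval from limma without a block; the dashed line is the median of all genes tested. Filled points (Smyd2, Smyd5 and Prdm4) had an adjusted p under 0.05 with the replicate block, and apart from Smyd2 every estimate lies between −0.54 and 0.48.

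Among the SMYD genes, Smyd5 stood beside Smyd2. Smyd5, which encodes a methyltransferase without the C-terminal domain of its relatives, had 25.0, 15.9 and 16.0 FPKM for Smyd2 fl/fl, compared with 15.8, 10.9 and 11.5 for Smyd2 SMC-/-. The groups did not overlap, but the highest Smyd2 SMC-/- library and the lowest Smyd2 fl/fl library were nearly equal, because replicate 1 was high in both groups. In each pair the difference was negative, at −0.63, −0.51 and −0.44 on log2(FPKM + 1). The fold change was −0.52 on that scale, with a standard error of 0.23. Leaving out 1 library moved it to between −0.68 and −0.32, the latter without Smyd2 fl/fl replicate 1. The adjusted p was 0.266 without and 0.0418 with the block, in a range from 0.0127 to 0.566 over all settings.

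Smyd1, the family member known for its role in heart and skeletal muscle, had 0.91, 1.34 and 0.92 FPKM across the Smyd2 fl/fl libraries against 0.54, 2.31 and 1.95 across the Smyd2 SMC-/- ones. It was lower in the replicate 1 pair and higher in the other pairs, with groups that overlapped (adjusted p = 0.698 from limma and 0.0355 in replicates 2 and 3 alone; range 0.0355 to 0.953). Smyd3 had 8.03, 8.25 and 8.41 FPKM with Smyd2 fl/fl and 10.6, 5.05 and 6.95 with Smyd2 SMC-/-. The 3 Smyd2 fl/fl libraries were close together and the Smyd2 SMC-/- libraries lay on both sides of them. Smyd4, which is needed for heart development, had 4.29, 2.33 and 2.31 FPKM for Smyd2 fl/fl, compared with 3.56, 1.94 and 1.80 for Smyd2 SMC-/-. Replicate 1 was high in both groups, and each pair differed by little, at −0.21, −0.18 and −0.24 on log2(FPKM + 1) (adjusted p = 0.741 from limma). Smyd2 made up 17.1%, 10.0% and 9.80% of the summed FPKM of the 5 SMYD genes for Smyd2 fl/fl, compared with 5.19%, 1.94% and 3.48% for Smyd2 SMC-/-.

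Of the 8 H3K4 members, 2 had a fold change below 0, compared with 52.0% of all genes tested. Their median was 0.21, and none was called without or with the block. The SMYD genes were listed apart although SMYD2 is also known for H3K4, and 4 of these 5 had a fold change below 0. A difference between roles was not tested, and the small positive values of Kmt2a and Kmt2b turned negative on leaving out 1 library (−0.08 for Kmt2a and −0.16 for Kmt2b without Smyd2 fl/fl replicate 2). Setd7, an H3K4 monomethyltransferase that also modifies other proteins, had 16.7, 17.7 and 20.1 FPKM across the Smyd2 fl/fl libraries against 27.8, 25.2 and 23.98 across the Smyd2 SMC-/- ones. Every Smyd2 SMC-/- library lay above every Smyd2 fl/fl library, and the replicate 1 libraries did not stand apart. Its fold change was 0.48 on the log2 scale (standard error 0.13, 95% interval 0.17 to 0.78, adjusted p = 0.112 from limma). The adjusted p was 0.0303 with a term for replicate 1 and 0.0375 in replicates 2 and 3 alone, in a range from 0.0303 to 0.298. Setd1b, a catalytic subunit of a COMPASS complex, had 7.78, 6.80 and 9.28 FPKM with Smyd2 fl/fl and 10.8, 9.93 and 11.2 with Smyd2 SMC-/-. These groups did not overlap either, and the difference was 0.43, 0.49 and 0.24 within the pairs (adjusted p = 0.223 from limma, range 0.0889 to 0.527).

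Its paralog Setd1a showed the replicate more than the genotype. Setd1a had 36.9, 12.7 and 15.7 FPKM for Smyd2 fl/fl, compared with 30.5, 14.6 and 15.2 for Smyd2 SMC-/-. Replicate 1 was above the other replicates by 1.32 (Smyd2 fl/fl) and 0.99 (Smyd2 SMC-/-) on log2(FPKM + 1), whereas the fold change between genotypes was −0.04 and turned to 0.07 in replicates 2 and 3 alone and to 0.08 on rescaling to TPM. Kmt2d, an H3K4 methyltransferase of enhancers, had 21.6, 7.92 and 10.95 FPKM across the Smyd2 fl/fl libraries against 20.3, 7.74 and 10.2 across the Smyd2 SMC-/- ones. Its values matched by replicate number, with pair differences of −0.08, −0.03 and −0.10. Of the other H3K4 members, Kmt2e, which has little or no catalytic activity of its own, had a fold change of 0.39 (adjusted p = 0.221 from limma), and Kmt2c, Kmt2a and Kmt2b had 0.32, 0.10 and 0.02.

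**Figure D3:**
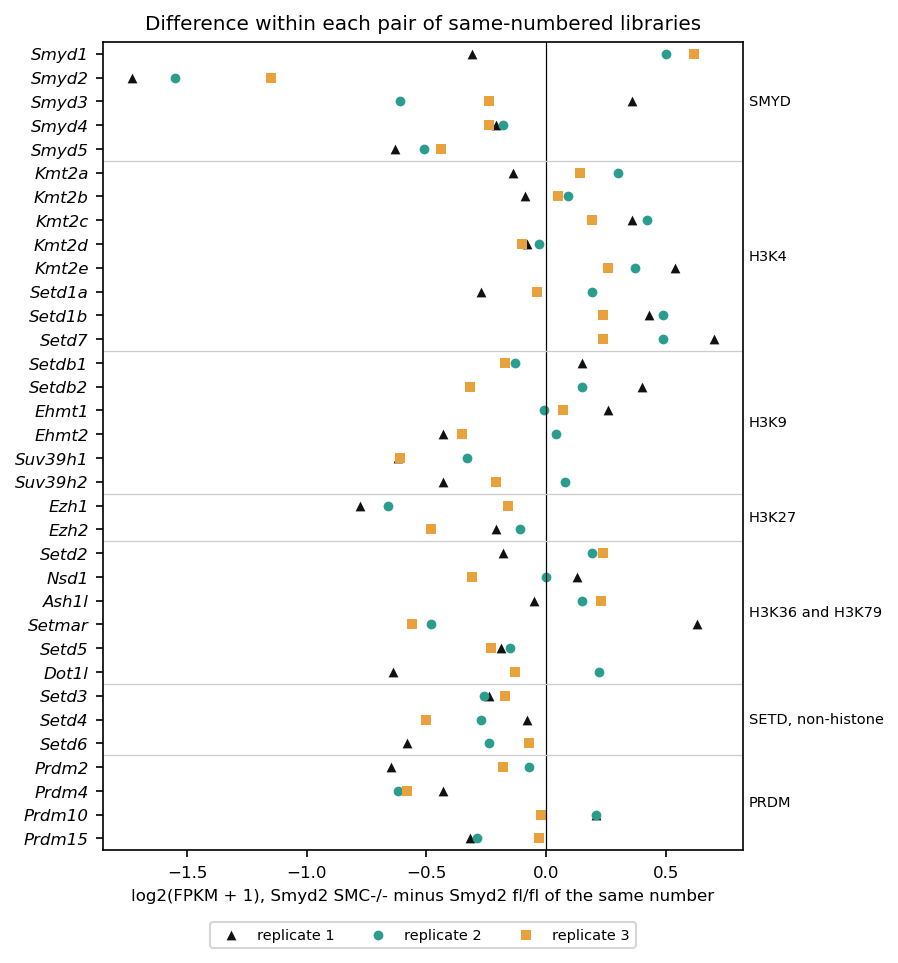
Difference on log2(FPKM + 1) between the Smyd2 SMC-/- and the Smyd2 fl/fl library of the same replicate number, 1 symbol per pair and 1 row per member. All 3 pairs lie below 0 for 14 members and above 0 for 4, the latter being Kmt2c, Kmt2e, Setd1b and Setd7.

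All 3 pairs were below 0 for 14 members, or 41.2%, compared with 29.3% of all genes tested, and above 0 for 4 members, or 11.8%, compared with 25.8%. Those 4, shown in the plot of pair differences, are all in the H3K4 group, which leaves out the SMYD genes.

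Among the H3K9 methyltransferases, the enzymes of silenced chromatin, no member was called without or with the block. Suv39h1, which trimethylates H3K9 in heterochromatin, had 22.9, 11.3 and 11.5 FPKM with Smyd2 fl/fl and 14.6, 8.78 and 7.18 with Smyd2 SMC-/-. Each pair was lower in Smyd2 SMC-/-, but the groups overlapped because replicate 1 was high in both. Its fold change was −0.52 on the log2 scale, with an adjusted p of 0.469 from limma and 0.0265 in replicates 2 and 3 alone (range 0.0231 to 0.797). Leaving out 1 library moved the fold change to between −0.79 and −0.20, the latter without Smyd2 fl/fl replicate 1. Ehmt2 (G9a), the most abundant member, had 87.5, 52.1 and 63.5 FPKM for Smyd2 fl/fl, compared with 64.7, 53.7 and 49.7 for Smyd2 SMC-/-, with groups that overlapped. Setdb1, Setdb2, Ehmt1 and Suv39h2 had fold changes between −0.19 and 0.11.

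Both catalytic subunits of PRC2, the complex that methylates H3K27, had negative fold changes and neither was called. Ezh1 had 7.51, 9.86 and 9.28 FPKM across the Smyd2 fl/fl libraries against 3.95, 5.89 and 8.23 across the Smyd2 SMC-/- ones. It is one of the 2 members that were lowest in replicate 1 of both groups, and its groups overlapped (log2 fold change −0.53, adjusted p = 0.295 from limma). Ezh2 was instead high in replicate 1 of both groups, and its fold change was −0.27 (adjusted p = 0.594 from limma). Leaving out 1 library gave fold changes of −0.75 to −0.30 for Ezh1 and −0.45 to −0.09 for Ezh2.

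The members for H3K36 and H3K79 had fold changes from −0.19 to 0.11 in the main fit, with all groups overlapping. They are Setd2, the enzyme that trimethylates H3K36, Nsd1 and Ash1l, Setmar, Setd5, whose activity is disputed, and Dot1l, which methylates H3K79 and has no SET domain. Setmar was higher in the replicate 1 pair (0.63) and lower in the other pairs (−0.48 and −0.56). In replicates 2 and 3 alone its fold change was −0.52 (limma, adjusted p = 0.0534). Setd3 and Setd6 act on proteins other than histones. Setd3, which methylates a histidine of actin, had 32.1, 29.6 and 28.5 FPKM with Smyd2 fl/fl and 27.1, 24.5 and 25.2 with Smyd2 SMC-/-. The libraries of each group were close together and the groups did not overlap, yet the difference was small (log2 fold change −0.22, standard error 0.11, adjusted p = 0.332). Setd6, which methylates the NF-κB subunit RelA, had 7.56, 6.21 and 5.74 FPKM for Smyd2 fl/fl, compared with 4.73, 5.12 and 5.41 for Smyd2 SMC-/-. Its groups did not overlap, but the pair difference was −0.58 in replicate 1 and −0.24 and −0.07 in replicates 2 and 3 (adjusted p = 0.338). Setd4, the scarcest member, had a fold change of −0.28 (adjusted p = 0.468).

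Of the 4 PRDM genes, Prdm4 was the one with groups that did not overlap. Prdm4, a zinc finger protein that binds the arginine methyltransferase PRMT5, had 24.6, 19.7 and 20.3 FPKM across the Smyd2 fl/fl libraries against 18.1, 12.5 and 13.3 across the Smyd2 SMC-/- ones. All 3 Smyd2 SMC-/- libraries were lower, and the pair differences of −0.43, −0.62 and −0.58 were alike with and without replicate 1. The fold change was −0.54 on the log2 scale with a 95% interval of −0.97 to −0.12. Its adjusted p was 0.163 without and 0.0401 with the block, in a range from 0.00497 to 0.437 over all settings. Prdm2, Prdm15 and Prdm10 had fold changes of −0.30, −0.21 and 0.13 with groups that overlapped.

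Smyd5 and Prdm4, the members besides Smyd2 that were lower with the replicate block, were compared in their promoter sequence, a choice made after their values were seen. The Setd7 promoter was also read and was not printed once it was found to hold none of the GC box, CCAAT box and E2F letters. Both sequences are RefSeq sequences of GRCm38.p6, 250 bases up to the annotated start, at chr6:85431726-85431975 on the plus strand for Smyd5 and chr10:85916987-85917236 on the minus strand for Prdm4. The annotations differ on the start of Prdm4: of the 250 bases, 156 lie inside the gene as GENCODE M21 gives it, and RefSeq lists 2 promoters, of which the first is printed. Capitals mark matches on either strand to the GC box GGGCGG and the CCAAT box CCAAT.
Smyd5 promoter: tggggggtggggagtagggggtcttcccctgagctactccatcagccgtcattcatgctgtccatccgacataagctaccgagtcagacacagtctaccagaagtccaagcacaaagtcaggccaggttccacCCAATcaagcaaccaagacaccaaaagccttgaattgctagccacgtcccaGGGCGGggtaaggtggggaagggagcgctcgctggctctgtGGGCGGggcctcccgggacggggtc
Prdm4 promoter: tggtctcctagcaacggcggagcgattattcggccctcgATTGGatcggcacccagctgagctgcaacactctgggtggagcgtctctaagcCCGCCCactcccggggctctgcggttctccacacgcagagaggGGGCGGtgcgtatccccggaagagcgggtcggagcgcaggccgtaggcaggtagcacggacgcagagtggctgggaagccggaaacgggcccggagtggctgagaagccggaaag
Both hold both motifs, as did 7 of the 28 member promoters that could be matched and 11.4% of all promoters. Besides Smyd5 and Prdm4, the 7 are Suv39h1, Setd3, Smyd4 and Setdb1, with fold changes of −0.52, −0.22, −0.21 and −0.05, and Prdm16. Whether the motifs go with the fold changes was not tested. The GC box was found in 18 of the 28 (Prdm16 among them), compared with 32.9% of 27025 promoters, and the CCAAT box in 12, compared with 34.5%. The E2F motifs TTTGGCGC and TTTCCCGC were found in 0 of the 28, compared with 1.35% of all promoters, and the CArG box, the site that serum response factor binds (CC, then 6 letters A or T, then GG), in 0, compared with 1.40%. The member promoters held a median of 23.5 CG dinucleotides, and all promoters 6. All promoters here include those of genes that were not tested, whereas every matched member but Prdm16 was tested. A comparison with the promoters of tested genes alone was not made.

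Replicate 1 differed in the same direction in both genotypes for many members. In 18 of 34 members, or 52.9%, replicate 1 was the highest library of both groups, compared with 35.8% of all genes tested. Replicate 1 was the lowest in both groups in 2 members (Smyd1 and Ezh1), or 5.88%, compared with 21.7%. The offset of replicate 1 was larger than the genotype difference in 19 members, or 55.9%, much as in 55.3% of all genes tested. It was largest for Setd1a and Kmt2d, which had genotype differences near 0, while Setd7, Kmt2e, Setd1b and Kmt2c had positive genotype differences and little offset. What differed in the replicate 1 cultures is not given in the sources used here.

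**Figure D4:**
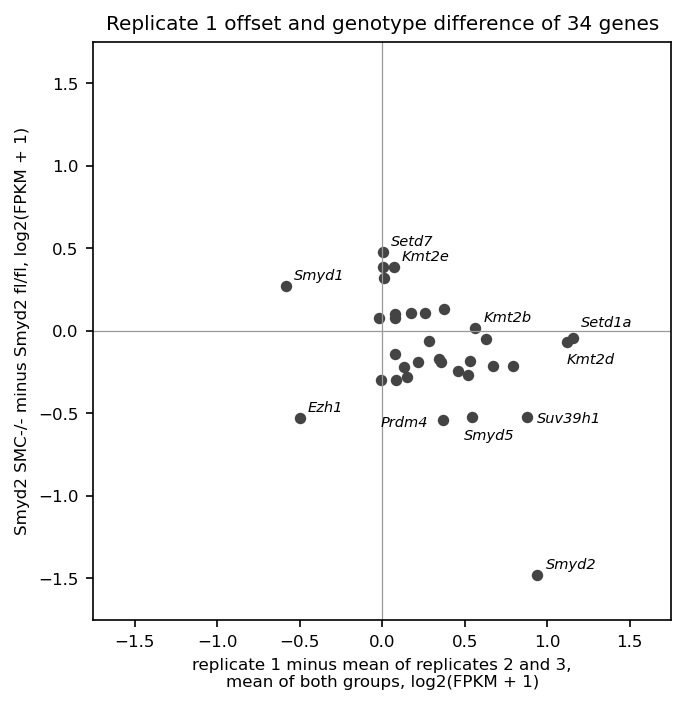
Genotype difference (vertical axis) against the offset of replicate 1 from replicates 2 and 3 averaged over both groups (horizontal axis), both on log2(FPKM + 1), 1 point per member. Setd1a and Kmt2d lie far to the right near a genotype difference of 0, Smyd2 is far from 0 on both axes, and Setd7 is at the top with an offset near 0.

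The proteins that assemble with these enzymes or reverse their marks were read in the same fit. Of 12 subunits of the COMPASS complexes, which carry the KMT2 and SETD1 enzymes, 1 was lower and 0 higher in limma without a block, and 2 were lower with it, where the shares of all genes tested were 1.21%, 1.23% and 5.72%. The first was Dpy30, a core subunit that stimulates their activity, with 41.2, 37.9 and 33.8 FPKM with Smyd2 fl/fl and 21.4, 19.8 and 17.97 with Smyd2 SMC-/-. The groups were far apart and replicate 1 did not stand out (log2 fold change −0.90, standard error 0.13, adjusted p = 0.0269; range 0.00117 to 0.156 over all settings). Leaving out Smyd2 fl/fl replicate 2 or 3 gave an adjusted p of 0.137 or 0.104, and leaving out Smyd2 SMC-/- replicate 2 or 3 gave 0.13 or 0.156. With the block Psip1, the chromatin-binding partner of the menin and KMT2A complex, was lower too, at 40.2, 32.4 and 33.95 FPKM with Smyd2 fl/fl and 21.4, 23.2 and 22.5 with Smyd2 SMC-/-, groups that did not overlap (log2 fold change −0.64, adjusted p = 0.0403 with the block; range 0.00692 to 0.234).

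No gene of the other lists was called without the block: 0 of 9 PRC2 subunits, 0 of 6 readers of H3K9 methylation and SETDB1 partners, 0 of 21 lysine demethylases and 0 of 10 other lysine methyltransferases. At an unadjusted p under 0.05 these lists held 0, 0, 4 and 2 genes, where 11.2% of all genes tested were lower and 9.16% higher. With the block the demethylases Kdm2a and Jmjd1c were lower, 2 of 21 where the share of all genes tested was 5.72%, and the other 3 lists again had 0 calls. Kdm2a, which removes H3K36 methylation, had 59.4, 49.4 and 55.0 FPKM for Smyd2 fl/fl, compared with 39.2, 33.5 and 38.8 for Smyd2 SMC-/- (log2 fold change −0.54, adjusted p = 0.033 with the block; range 0.0143 to 0.265). Jmjd1c, a relative of the H3K9 demethylases, had 15.6, 12.8 and 18.8 FPKM across the Smyd2 fl/fl libraries against 10.2, 9.25 and 11.6 across the Smyd2 SMC-/- ones (log2 fold change −0.55, adjusted p = 0.0418 with the block; range 0.0418 to 0.373), and the block was the 1 setting of 14 that called it. For both genes the groups did not overlap. The median fold changes were −0.15 for the COMPASS subunits, −0.11 for the PRC2 subunits, −0.20 for the H3K9 readers, −0.13 for the demethylases and 0.05 for the other methyltransferases.

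**Figure D5:**
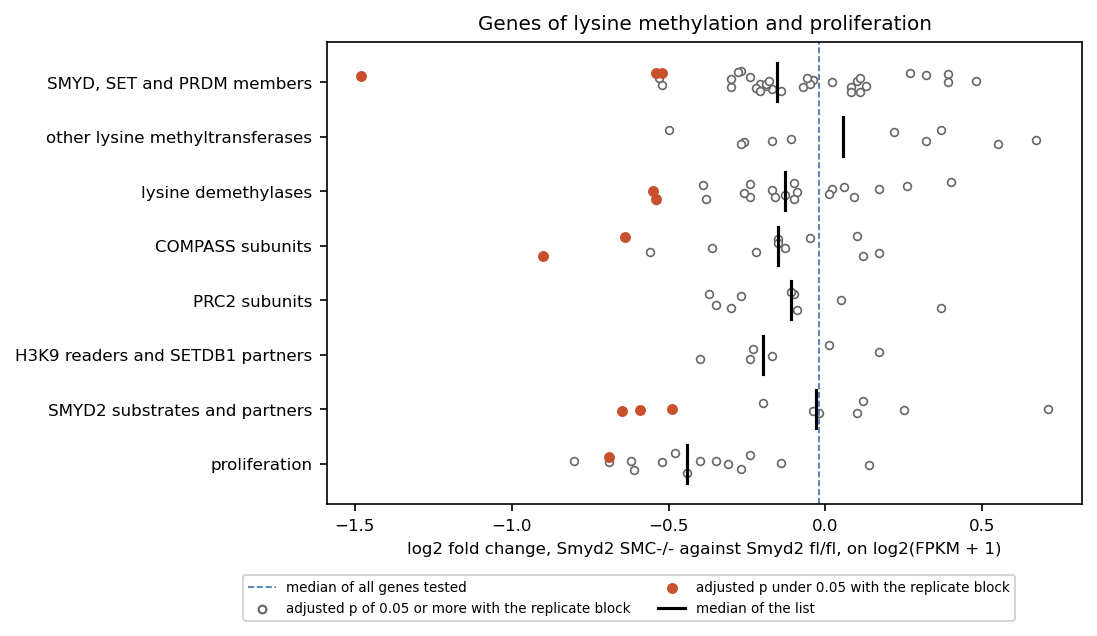
Log2 fold change of each gene tested (points, spread vertically for display), Smyd2 SMC-/- against Smyd2 fl/fl on log2(FPKM + 1), by list, with the list's median as a black bar and the median of all genes as a dashed line. Filled points had an adjusted p under 0.05 with the replicate block, and Smyd2 (−1.48) and Dpy30 (−0.90) lie farthest to the left in their lists.

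Cell type markers differed by genotype and by replicate 1. The 7 fibroblast markers summed to 301, 918 and 784 FPKM with Smyd2 fl/fl and 81.1, 571 and 516 with Smyd2 SMC-/-. In replicates 2 and 3 the most abundant was Ly6a for Smyd2 fl/fl and Dcn for Smyd2 SMC-/-, and Lum was listed at 0 in Smyd2 fl/fl replicate 1. Of the 7, 1 was called as lower without the block, where 1.21% of all genes tested were. This was Dpt, with 144, 90.3 and 65.5 FPKM for Smyd2 fl/fl, compared with 3.31, 1.15 and 0.63 for Smyd2 SMC-/- (log2 fold change −5.28, adjusted p = 0.00417; range 1.08e-05 to 0.0407 over all settings). With the block Cd34 and Ly6a were lower too (adjusted p = 0.0269 and 0.0404; ranges 0.00023 to 0.21 and 0.000336 to 0.823), and Cd34 also without Smyd2 SMC-/- replicate 1 (0.0121). With the block 3 of the 7 were thus lower, against 5.72% of all genes tested. Lum and Dcn went the other way, being higher in Smyd2 SMC-/- in all 3 pairs. Neither was called without or with the block, but both were called as higher with a term for replicate 1, and Lum in replicates 2 and 3 alone as well. In both of these fits the other 5 markers, Pdgfra and Pi16 included, were called as lower. The shares of all genes tested were 11.1% lower and 9.17% higher with the term, and 17.2% and 11.9% in replicates 2 and 3 alone. The 11 smooth muscle markers summed to 1520, 1290 and 1300 FPKM across the Smyd2 fl/fl libraries against 577, 782 and 757 across the Smyd2 SMC-/- ones, with Acta2 the most abundant for Smyd2 fl/fl and Cald1 for Smyd2 SMC-/-. Of the 11, 8 were tested, and Myh11, Myocd and Des were under the filter. Without the block 1 of the 8 was lower and with it 2, against 1.21% and 5.72% of all genes tested. Acta2 was the 1 marker of this list called without the block (log2 fold change −1.55, adjusted p = 0.00803; range 0.000241 to 0.0615), and it was not called without Smyd2 fl/fl replicate 2 (0.0541), Smyd2 fl/fl replicate 3 (0.0615) or Smyd2 SMC-/- replicate 3 (0.0533). Cald1 was lower with the block (adjusted p = 0.0757 without and 0.0488 with it; range 0.0205 to 0.234). Tagln, Cnn1 and Tpm2 depended on replicate 1. Their fold changes were −0.92, −0.91 and −0.56 over all libraries and −0.08, −0.07 and −0.02 in replicates 2 and 3 alone. The median of the list was −0.57 over all libraries and −0.04 in replicates 2 and 3 alone. Mylk was higher in all 3 pairs, and was called as higher with a term for replicate 1 and in replicates 2 and 3 alone. Lmod1 was lower in the replicate 1 pair and higher in the other pairs, and was called as higher in replicates 2 and 3 alone. The adipocyte list was low except for Fabp4, which had 119 FPKM in Smyd2 SMC-/- replicate 1 and at most 6.19 FPKM in the other libraries. The part of these differences in the values of Smyd5, Prdm4, Setd7 and the other members was not tested, and in bulk RNA fewer cells of a type and less RNA per cell cannot be told apart.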

How the data were processed

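RNA-seq of 6 libraries, 3 Smyd2 fl/fl and 3 Smyd2 SMC-/-, was analysed. The authors deposited FPKM values rounded to 2 decimals, made with Bowtie2 and RSEM per the labels; versions and genome build are not given in the sources used here. The 12565 genes averaging 0.5 FPKM or more were kept, and log2(FPKM + 1) was compared between genotypes by limma 3.58.1 under R 4.3.3 (trended, robust eBayes, genotype only), with Benjamini-Hochberg adjustment over all genes and calls at an adjusted p under 0.05. A fold change on log2(FPKM + 1) understates the change of low genes. The members and lists were chosen with earlier results of these data known.

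Replicate numbers come from the labels. Deviations from the group means correlated by 0.61, 0.46 and 0.53 between same-numbered libraries. Replicates 2 and 3 of different groups correlated about as much (0.46 and 0.44). Deviations within a group sum to 0, so a shared replicate 1 offset is enough to make replicates 2 and 3 correlate across groups. The correlations thus set replicate 1 apart and cannot decide how replicates 2 and 3 pair. The block and the pair differences assume pairing by number. With the replicate block Smyd2 had a log2 fold change of −1.48.

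Depth was estimated from 4343 genes with 1 transcript of known GENCODE M21 length, using those of at most 1200 bases with 80 bases taken off. Of the low values, 72.0% to 74.9% were then whole fragments to within 0.15. The fragment numbers and the offset were searched to make this share largest. The 30% expected by chance holds for a fixed number and is not the chance level of such a search. The offset is the last of 3 versions tried and the estimate depends on it: without it the libraries came to 15900000 to 18250000 fragments (64.4% to 71.8%), and with an offset for each library, which was unstable (20 to 100 bases), to 17100000 to 20000000. It covers counting error only. Gene positions are from GENCODE M21 (GRCm38), matched by symbol, and promoters from RefSeq (28 members matched); the promoters printed were chosen after the values, and a further 1 (Setd7) was left out after its letters were seen. The fit was tested on simulated data.

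Values in each library are given for the SMYD genes, for members called without or with the block, and for members whose groups did not overlap; from each other list up to 4 genes called without the block, then those with it, at a mean of at least 1 FPKM. Cell type markers were read outside this rule, with values in each library for a few of them. Setd1a, Kmt2d, Suv39h1, Ehmt2 and Ezh1 were added after their values were seen. Alternatives were a pseudocount of 0.1, no filter, the block, a term for replicate 1, replicates 2 and 3 alone, each library left out, TPM, quantile normalization, and a fold change over 2 with an adjusted p under 0.01. Python 3.11.15, pandas 2.3.3, numpy 2.4.6, scipy 1.17.1 and matplotlib 3.10.9 were used.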

Additional observations from a re-analysis of the deposited data

How the results depend on the processing

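The counts of called genes depended most on how replicate 1 was treated. With the replicate block, 3 members were lower, and 719 genes were lower and 593 higher, compared with 152 and 154 without it. A term for replicate 1 gave 4 members lower and 1 higher, and 1398 and 1152 genes. Replicates 2 and 3 alone gave 4 and 2 members, and 2156 and 1494 genes. Rescaling to TPM gave 99 genes lower and 247 higher, and a fold change over 2 with an adjusted p under 0.01 gave 26 and 27, with 0 members each. Leaving out 1 library gave 16 to 313 genes lower and 16 to 373 higher, and 0 members in either direction. For Smyd2 the log2 fold change was −1.48 with the block and with a term for replicate 1 and −1.35 in replicates 2 and 3 alone, with adjusted p of 0.0189, 0.00328 and 0.00126. Over all settings it ran from −2.21 with a pseudocount of 0.1 to −1.10 without Smyd2 fl/fl replicate 1. The other lists had 12 COMPASS subunits, 9 PRC2 subunits, 6 H3K9 readers and partners, 21 demethylases and 10 other methyltransferases tested. The substrates and partners of SMYD2 added 10 genes and the proliferation list 15. Among genes of the other lists, cell type markers not counted, 1 was lower and 0 higher without the block. A pseudocount of 0.1 gave 2 lower (Trp53 added), the block 8, a term for replicate 1 gave 14 lower and 2 higher, replicates 2 and 3 alone 15 and 3, and the stricter cutoff 0 lower. Leaving out 1 library gave 0 to 3 lower and 0 to 1 higher. Of all genes tested, 5.72% were lower with the block, and 11.1% were lower and 9.17% higher with the term. In replicates 2 and 3 alone the shares of all genes were 17.2% and 11.9%. Beyond the genes given with a blocked value, the block changed no call of a named gene.

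The direction turned in 14 members, none of them called in any setting. On rescaling to TPM the value was 0.05 for Kmt2d, 0.08 for Setd1a, 0.07 for Setdb1 and 0.06 for Nsd1. In replicates 2 and 3 alone it was 0.07 for Setd1a, −0.08 for Setdb2 and 0.04 for Dot1l. Leaving out 1 library gave ranges of −0.41 to 0.05 for Smyd3, −0.43 to 0.01 for Smyd4, −0.08 to 0.19 for Kmt2a, −0.16 to 0.23 for Kmt2b, −0.44 to 0.31 for Kmt2d, −0.37 to 0.40 for Setd1a, −0.31 to 0.11 for Setdb1 and −0.01 to 0.22 for Setdb2. They were −0.02 to 0.17 for Setd2, −0.20 to 0.03 for Nsd1, −0.35 to 0.03 for Setmar, −0.40 to 0.10 for Dot1l, −0.01 to 0.24 for Prdm10 and −0.45 to 0.08 for Prdm15. The cause was not tested.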

Other observations

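Substrates and partners of SMYD2 were read in the same fit. Of 10 genes, 0 were called in limma without the block, 3 were lower at an unadjusted p under 0.05, and 3 were lower with the block (Trp53, Hsp90ab1 and Ahnak), where the shares of all genes tested were 11.2% and 5.72%. The median of the list was −0.03, since others went the other way: Bmpr2 was higher with groups that did not overlap, and Esr1, at 0.71, was higher in all 3 pairs and called with a term for replicate 1 and in replicates 2 and 3 alone. Trp53, which encodes p53, had 171, 149 and 144 FPKM with Smyd2 fl/fl and 102, 98.5 and 93.4 with Smyd2 SMC-/-, a difference of −0.65 on the log2 scale (adjusted p = 0.0504 without and 0.0266 with the block; range 0.00541 to 0.23, with 0.047 without Smyd2 SMC-/- replicate 1). Hsp90ab1, which encodes HSP90 beta, had 1280, 1283 and 1225 FPKM for Smyd2 fl/fl, compared with 849, 872 and 796 for Smyd2 SMC-/- (log2 fold change −0.59, adjusted p = 0.0542 without and 0.0322 with the block; range 0.0133 to 0.294), and quantile normalization reduced the fold change to −0.29. For both genes the groups did not overlap and replicate 1 was close to the other replicates. Ahnak, the gene of a large scaffold protein, had 181, 156 and 182 FPKM with Smyd2 fl/fl and 126, 112 and 129 with Smyd2 SMC-/-, groups that did not overlap, and differed by −0.49 on the log2 scale (adjusted p = 0.102 without and 0.0406 with the block; range 0.0273 to 0.297).

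Of 15 proliferation genes, 14 had a negative log2 fold change, or 93.3% compared with 52.0% of all genes tested, with a median of −0.44. The pairs differed, with medians of −0.47, −0.10 and −0.81 in replicates 1, 2 and 3, and some genes such as Plk1 and Rrm2 were higher in Smyd2 SMC-/- in the replicate 2 pair. In limma without the block 0 were called, while 5 were lower at an unadjusted p under 0.05, a limit that 11.2% of all genes tested passed as lower. With the block 1 of the 15 was lower, close to the share of 5.72% of all genes tested. With the block Cdk1, the kinase of mitotic entry, was lower, with 28.2, 21.3 and 19.4 FPKM across the Smyd2 fl/fl libraries against 16.0, 16.5 and 9.63 across the Smyd2 SMC-/- ones (log2 fold change −0.69, adjusted p = 0.0488 with the block; range 0.0466 to 0.439). Prdm6, a PRDM gene of smooth muscle, was picked once its values were known, and had 26.6, 21.4 and 19.4 FPKM with Smyd2 fl/fl and 25.5, 40.4 and 45.2 with Smyd2 SMC-/-. It was nearly level in the replicate 1 pair and higher in the other pairs (adjusted p = 0.191 from limma), so that it was called in replicates 2 and 3 alone and not in the main fit or with the block.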
